A study of Mus musculus with 3 samples.

Results

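The platelet-derived growth factor (PDGF) family was followed across the cell types of the mouse diaphragm by single-cell RNA-Seq (scRNA-Seq). The family comprised the ligand genes *Pdgfa*, *Pdgfb*, *Pdgfc* and *Pdgfd*, the receptor genes *Pdgfra* and *Pdgfrb*, and the receptor-like gene *Pdgfrl*. These 7 genes were chosen by their symbols, out of 32285 genes counted. None was chosen for its values, although earlier results of these data were known. All 7 were detected, with 51961 of the 102759615 UMIs in the data. A UMI (unique molecular identifier) marks 1 captured transcript molecule.

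PDGFs are dimeric growth factors that act mainly over short distances on mesenchymal cells. The A and C chains bind chiefly PDGFRα, whereas the B and D chains bind PDGFRβ, with B also able to bind PDGFRα. The C and D chains are secreted with a CUB domain that must be cleaved by proteases before the ligand is active. Ligand binding pairs the receptor tyrosine kinases, which then recruit PI3 kinase, phospholipase Cγ and the phosphatase SHP2. In muscle, PDGFRα is the usual surface marker of fibro-adipogenic progenitors (FAPs), the stromal cells that give rise to fibroblasts and adipocytes, and PDGFRβ marks the mural cells (pericytes and smooth muscle) of vessels. PDGF-B from endothelium is known for recruiting mural cells to growing vessels. The *Pdgfrl* product resembles the outer part of a PDGF receptor and has no kinase domain.

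Mononuclear cells of the costal diaphragm were freed with collagenase II, dead cells were removed by DAPI sorting, and the rest were profiled with 10x Genomics 3′ chemistry in 3 libraries. The WT CD library came from C57Bl/6J mice on control diet and the WT HFD library from C57Bl/6J mice given a high-fat diet with 45% of its calories from lipid. The KO HFD library came from thrombospondin-1 knockout mice (B6.129S2-Thbs1tm1Hyn/J) on the same high-fat diet. Diets lasted 6 months in male mice that were 2 months old at the start, and each library pooled 2 mice by the study's methods. The knockout is present in every cell type, so a difference in one class cannot be assigned to *Thbs1* loss in that class, and there was no knockout library on control diet. With 1 library per group there was no replicate of a diet or genotype. Differences between libraries are therefore given with 95% counting intervals and without a test, and those intervals do not cover variation between mice. Values for the libraries are always listed in the order WT CD, WT HFD and KO HFD.

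The libraries held 4132, 3774 and 4369 cell barcodes with 34312860, 31967976 and 36478779 UMIs. The median cell had 7632.5, 8041.5 and 7554 UMIs. Between any 2 libraries, 7 barcodes at most were shared. *Thbs1*, the targeted gene, gave 191, 229 and 226 CPM in FAPs (CPM is the gene's UMIs per 1000000 UMIs of the class in that library). Because the chemistry reads the 3′ end of transcripts, that level does not check the knockout label.

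Cells were assigned to 13 classes by UMIs of marker genes, none of them a PDGF gene. FAPs were cells with at least 10 *Dcn* UMIs and no *Ptprc*, *Pecam1* or *Pax7* UMI, and 6609 of 12275 cells (53.8%) met this rule, 2211, 2037 and 2361 per library. Markers not used in the gates were at their highest in the class they mark for blood and lymphatic endothelial cells, macrophages, B cells, T or NK cells, neutrophils, dendritic cells, mural cells, mesothelial cells and Schwann cells. For muscle stem cells (MuSCs) this held for 2 of 3 markers, *Des* being higher in mural cells. For FAPs it held for 1 of 5, *Gsn* (16243, 15655 and 17675 CPM). *Col1a1*, *Lum* and *Pi16* were higher in the class gated on tenocyte markers (for *Lum* 1722, 1633 and 1864 CPM, against 1421, 1426 and 1533 in FAPs). *Osr1* was higher in mesothelial cells (390, 319 and 431 CPM) than in FAPs (97.5, 116 and 106 CPM). The gate set for tenocytes did not bear out its label. Of 3 markers not used in that gate, 1 was at its highest in the class. Of the gate's UMIs 98.9% were *Thbs4*, and it took 2240 FAPs (33.9%), whereas 45 FAPs (0.681%) had a *Scx* UMI. The class is called Thbs4-high cells here, and 2239 of its 2257 cells were also FAPs, as were 159 of the 162 mesothelial cells. A further 1695 cells (13.8%) fell in no class.

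FAPs held most UMIs of every family member other than *Pdgfb*. They supplied 93.1% of all *Pdgfra* UMIs, 90.9% of *Pdgfrb* UMIs and 90.1% of *Pdgfrl* UMIs. Blood endothelial cells supplied 62.6% of *Pdgfb* UMIs, against 0.690% from FAPs. *Pdgfc* came from FAPs (73.6%) and macrophages (18.4%), and *Pdgfd* from FAPs (67.7%) and blood endothelial cells (22.9%). *Pdgfa* had the widest origin, with 51.8% of UMIs from FAPs, 10.2% from MuSCs, 7.48% from macrophages and 6.16% from the 86 Schwann cells. These shares follow the number of cells recovered as well as the level per cell, whereas the levels below are set against all UMIs of the class.

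**Figure D1:**
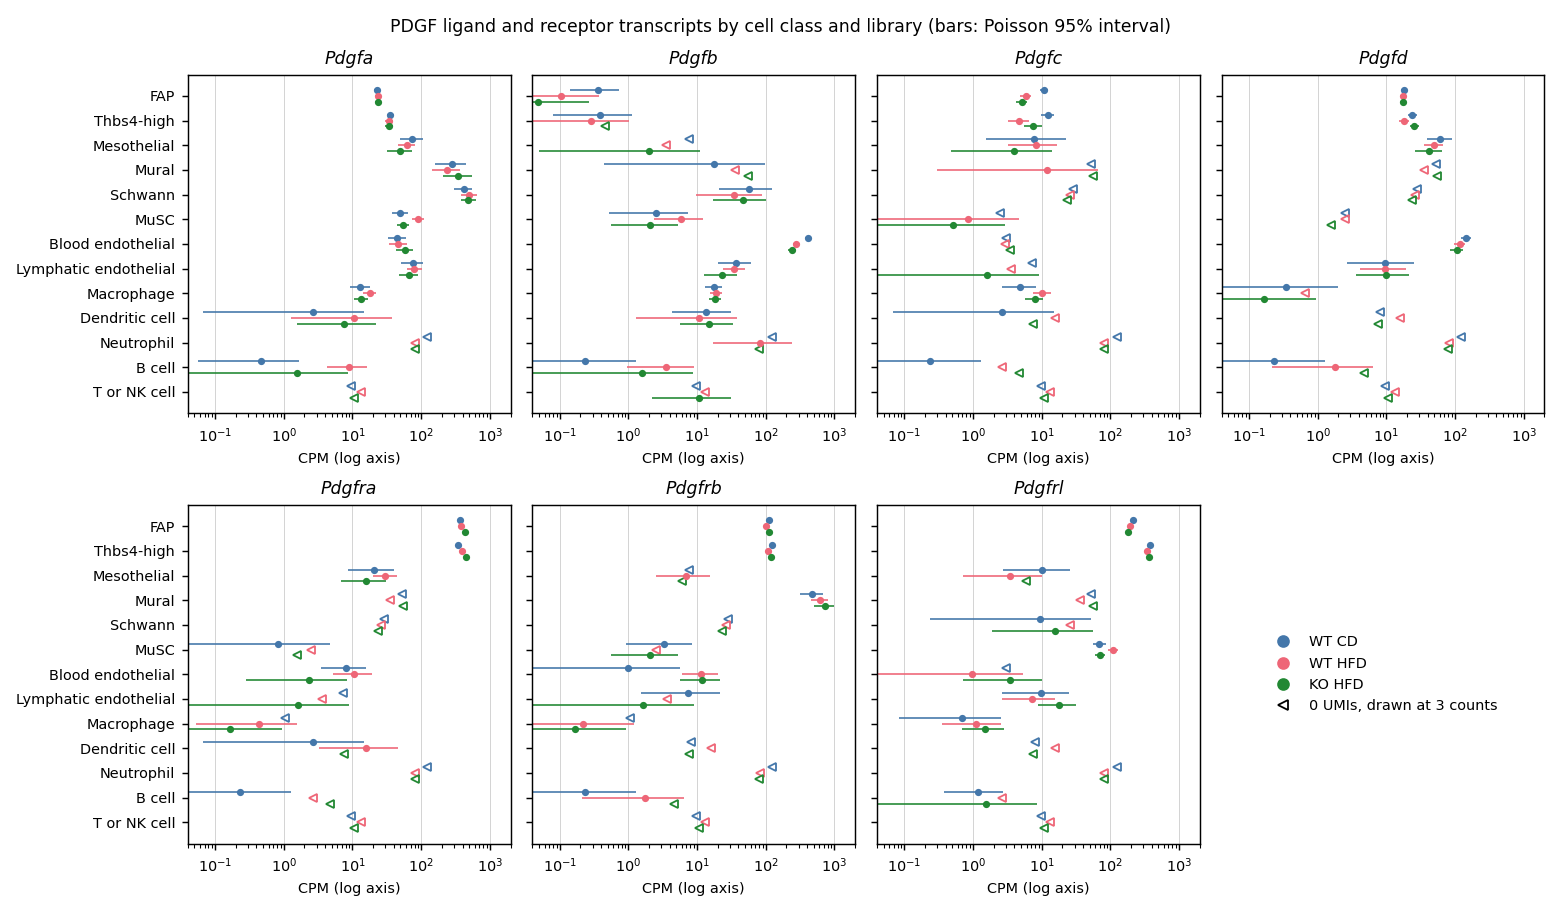
Level of each PDGF gene (CPM, log axis) in each cell class, 1 point per library, with open triangles at the level of 3 counts where no UMI was found. Pdgfra is highest in FAPs and Thbs4-high cells, Pdgfrb in mural cells, Pdgfb and Pdgfd in blood endothelial cells, and Pdgfa in Schwann and mural cells.

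Classes were compared by edgeR's quasi-likelihood test on summed UMIs, with the library as a block and Benjamini-Hochberg adjustment over all genes tested. The fit held the 7 classes with at least 50 cells in every library and 11989 genes, and FAPs that also passed another gate were left out of the FAP sum, so that fitted differences need not match the levels given for all gated FAPs. A second fit, added after the data were seen, took all classes with at least 10 cells per library and 10886 genes. In both, the spread is that between libraries of different diet and genotype. Among the 7 family members, 6 differed between FAPs and MuSCs at an adjusted p under 0.05 (background 55.2% of genes tested), all 7 between FAPs and blood endothelial cells (54.3%), 6 between FAPs and macrophages (71.9%) and 6 between MuSCs and blood endothelial cells (50.9%). Between the remaining FAPs and the Thbs4-high cells 3 differed, where the background was 7.3%. Calls lost under an alternative included *Pdgfc* between FAPs and macrophages and *Pdgfd* between FAPs and Thbs4-high cells. Those of *Pdgfa* and *Pdgfrb* between MuSCs and blood endothelial cells were also lost under an alternative.

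*Pdgfa* (chromosome 5, 138976014 to 138997370 on GRCm38) encodes the A chain. It was highest in Schwann cells, at 416, 496 and 488 CPM (467 ± 44.0, SD over 3 libraries). Mural cells followed with 281, 238 and 349 CPM, from 55 UMIs in 45 cells. These levels stood above every other class in all libraries and did not overlap each other, yet the difference between Schwann and mural cells had an adjusted p of 0.0576 (log2 difference 0.83, SE 0.29, added edgeR fit, background 12%).

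Below them, *Pdgfa* gave 75.2, 79.7 and 66.5 CPM in lymphatic endothelial cells and 50, 89.5 and 54.1 CPM in MuSCs. Mesothelial cells had 73.4, 61.6 and 49.5 CPM and blood endothelial cells 44.8, 46.1 and 58.4 CPM. Neighbours in that order had overlapping ranges, so their order is not resolved. FAPs were lower at 22.4, 23.5 and 23.4 CPM, macrophages had 13.0, 17.8 and 13.4 CPM, and B cells, a class not known for *Pdgfa*, had 0.464, 8.83 and 1.56 CPM, the WT HFD value coming from 10 UMIs in 1 cell. Cells were also thinned to 3000 UMIs, which left out the shallower 46 of 768 MuSCs, 273 of 727 blood endothelial cells and 38 of 629 B cells. Of the rest, 15.4% of MuSCs, 11.0% of blood endothelial cells and 0.338% of B cells had a *Pdgfa* UMI.

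FAPs without cells of another gate, as used in the fit, held 12.4, 14.5 and 17.4 *Pdgfa* CPM. The fit gave MuSCs the higher *Pdgfa* level against these FAPs (log2 difference, FAPs minus MuSCs, -2.27, SE 0.198, edgeR adjusted p = 9.83e-10) and against blood endothelial cells (0.64, SE 0.234, adjusted p = 0.0259). The second call depended on the WT HFD library, without which the difference was 0.32 and the adjusted p 0.264. FAPs were also below blood endothelial cells (-1.63, SE 0.234, adjusted p = 2.22e-06), mural cells (-3.84, SE 0.362, adjusted p = 9.74e-11, background 19%) and Schwann cells, which exceeded FAPs by 4.67 log2 units (SE 0.233, adjusted p = 2.16e-18, background 25%). Against macrophages these FAPs did not pass the test (-0.36, SE 0.205, adjusted p = 0.117). Nor did they with all gated FAPs, where the sign turned (0.15, edgeR adjusted p = 0.53) and the difference from MuSCs was -1.77. Within blood endothelium, cells with at least 2 UMIs of 6 arterial markers (*Gja5*, *Gja4*, *Sox17*, *Hey1*, *Bmx*, *Sema3g*) held 58.7, 70.1 and 83.7 *Pdgfa* CPM and the rest 13.1, 13.6 and 20.5 CPM, so the 2 sets did not overlap.

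*Pdgfb* (chromosome 15, 79995874 to 80014977), the B chain, was highest in blood endothelial cells. They held 410, 277 and 243 CPM (411, 288 and 208 UMIs), and 60.7, 55.1 and 56.5% of them had a UMI. Schwann cells had 56.7, 34.8 and 46.5 CPM from 16 UMIs and lymphatic endothelial cells 36.4, 35.0 and 22.7 CPM, far below blood endothelium in every library. Macrophages carried a lower but steady level of 17.5, 18.9 and 18.4 CPM, and dendritic cells 13.3, 10.5 and 15.1 CPM. FAPs had 7, 2 and 1 UMIs, which is 0.355, 0.104 and 0.0483 CPM, and mural cells, the textbook target of this ligand, had 1 UMI in all.

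With cells thinned to 3000 UMIs and 273 blood endothelial cells, 19 macrophages and 133 FAPs below that depth left out, 53.3% of blood endothelial cells and 5.34% of macrophages had a *Pdgfb* UMI, against 0.0463% of FAPs. The difference of blood endothelial cells from FAPs had an edgeR adjusted p of 1.97e-19 and that from MuSCs, which had 2.50, 5.85 and 2.06 CPM, one of 1.97e-14. *Pdgfb* in macrophages was also above FAPs (adjusted p = 2.86e-14). Fitted fold changes are not given for classes so near 0, since they depend on the prior count.

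*Pdgfb* in blood endothelial cells was highest in the WT CD library, and neither high-fat library reached it. The WT HFD level was 0.676 times the WT CD level (log2 ratio -0.57, 95% counting interval -0.79 to -0.34). KO HFD stood at 0.593 times WT CD (-0.75, -1.0 to -0.51). A gene was called between libraries when it differed 1.5-fold or more and reached 20 CPM in one of them. By that rule *Pdgfb* was lower in KO HFD than in WT CD, where 7.48% of endothelial genes were also called lower, and it fell just short for WT HFD, where the background was 5.46%. With TMM factors the WT HFD ratio was -0.59, just past 1.5-fold, so that call depends on the scaling. The WT HFD and KO HFD libraries themselves differed by less than 1.5-fold.

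*Pdgfb* was at 448, 295 and 249 CPM in arterial-marker cells and at 321, 252 and 234 CPM in the other blood endothelial cells. Arterial-marker cells had a log2 ratio of -0.60 (-0.88 to -0.33) for WT HFD and -0.85 for KO HFD against WT CD. The other cells had -0.46 (-0.90 to -0.02) for KO HFD, and -0.35 (-0.76 to 0.06) for WT HFD, which was not resolved from 0. Some marker lists moved alongside. A venous list (*Nr2f2*, *Selp*, *Vwf*, *Ackr1*, *Vcam1*) summed to 257, 658 and 465 CPM with *Vwf* most abundant, whereas an arterial list gave 940, 907 and 970 CPM with *Sox17* most abundant and a capillary list 3614, 3993 and 3193 CPM with *Gpihbp1* most abundant, and no gene of these lists was at 0. Red-cell transcripts in endothelial cells (*Hba-a1*, *Hbb-bs*, *Alas2*) summed to 34.9, 17.3 and 8.18 CPM, *Hbb-bs* most abundant and 1 gene at 0. Platelet transcripts gave 6.98, 3.85 and 3.50 CPM from 14 UMIs, all of *Itga2b*, with the other 4 genes of that list at 0. Mitochondrial genes took 4.78, 6.65 and 6.16% of endothelial UMIs. The part of these in the *Pdgfb* difference was not tested.

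*Pdgfc* (chromosome 3, 81036416 to 81214040), the C chain, was sparse, with 587 UMIs in all. FAPs had 10.8, 5.86 and 5.12 CPM (213, 113 and 106 UMIs) and macrophages 4.90, 10.2 and 7.86 CPM (14, 47 and 47 UMIs). Mesothelial cells had 7.59, 8.13 and 3.96 CPM. No UMI was found in blood endothelial or Schwann cells, which in 727 blood endothelial cells allows up to 1.03 CPM. FAPs without cells of another gate had 9.95, 6.40 and 3.996 CPM, above macrophages in WT CD and below them in the other libraries. The fit over all libraries placed these FAPs below macrophages by 0.73 log2 units (SE 0.308, edgeR adjusted p = 0.0391). That call was lost without the WT HFD library (adjusted p = 0.284) and without the KO HFD library (adjusted p = 0.523), and also with RLE factors, with DESeq2 and with doublets removed.

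*Pdgfc* showed the largest relative difference between libraries in FAPs, among the 6 members with more than 10 FAP UMIs in every library. Its FAP level in WT HFD was 0.542 times that in WT CD (log2 ratio -0.88, -1.23 to -0.55), and in KO HFD it was lower again than WT CD (-1.08, -1.43 to -0.74). KO HFD against WT HFD was not resolved in all gated FAPs (-0.20, -0.59 to 0.20). Among FAPs without cells of another gate, KO HFD was lower (55 UMIs in KO HFD and 73 in WT HFD, -0.68, -1.21 to -0.15). Thbs4-high cells, nearly all of them FAPs left out of that set, went the other way. They held 12.2, 4.65 and 7.53 CPM (94, 33 and 49 UMIs). Their WT HFD and KO HFD intervals overlapped (3.20 to 6.54 and 5.57 to 9.96 CPM). All values lay below the 20 CPM of the call rule, so *Pdgfc* was outside it. Myofibre transcripts in FAPs summed to 19.5, 14.0 and 14.6 CPM, *Acta1* most abundant and none at 0. Red-cell transcripts gave 2.18, 37.4 and 3.09 CPM, *Hbb-bs* most abundant and none at 0. Their part in the FAP ratios of *Pdgfc* and the other members was not tested. In macrophages WT HFD was instead above WT CD by 1.06 log2 units (0.18 to 2.04) on 14 UMIs in WT CD.

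Macrophage *Pdgfc* was concentrated in cells with a UMI of *Folr2*, a marker of resident macrophages. These cells held 17.3, 26.2 and 24.6 CPM, and macrophages without *Folr2* held 1.75, 2.58 and 1.17 CPM. *Folr2*-positive cells numbered 65 of 235, 170 of 418 and 168 of 490 macrophages. Within them WT HFD exceeded WT CD by 0.60 log2 units, and within the others by 0.55, with intervals that included 0 in both. Myofibre transcripts (*Acta1*, *Ckm*, *Myh4*) in macrophages summed to 8.05, 24.6 and 22.3 CPM, *Acta1* most abundant and none at 0, and their part was not tested.

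*Pdgfd* (chromosome 9, 6168584 to 6378850), the D chain, was highest in blood endothelial cells, at 146, 117 and 105 CPM (123 ± 20.7, SD over 3 libraries). Mesothelial cells had 60.7, 48.8 and 41.6 CPM and FAPs 18.3, 17.4 and 17.5 CPM. Lymphatic endothelial cells held 9.70, 9.66 and 9.73 CPM, well below blood endothelium, and no UMI was found in MuSCs, mural or Schwann cells, which allows up to 0.692, 15.3 and 8.58 CPM in these. FAPs were below blood endothelial cells by 3.08 log2 units (SE 0.157, edgeR adjusted p = 1.75e-13) and below mesothelial cells by 1.75 (SE 0.229, adjusted p = 3.27e-07, background 32%).

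Arterial-marker endothelial cells held more *Pdgfd* (175, 140 and 140 CPM) than the others (78.6, 86.2 and 52.6 CPM), although their counting intervals overlapped in WT HFD (112 to 173 and 61.0 to 118 CPM). In blood endothelium KO HFD was below WT CD (log2 ratio -0.47, -0.86 to -0.08), a difference of less than 1.5-fold. *Pdgfb* and *Pdgfd* were often found in the same endothelial cell, with 171 of 727 cells carrying both. *Pdgfd* was detected in 40.9% of *Pdgfb*-positive and 23.6% of *Pdgfb*-negative cells. In the 454 cells with at least 3000 UMIs, thinned to that number, the shares were 38.0 and 17.5%.

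**Figure D2:**
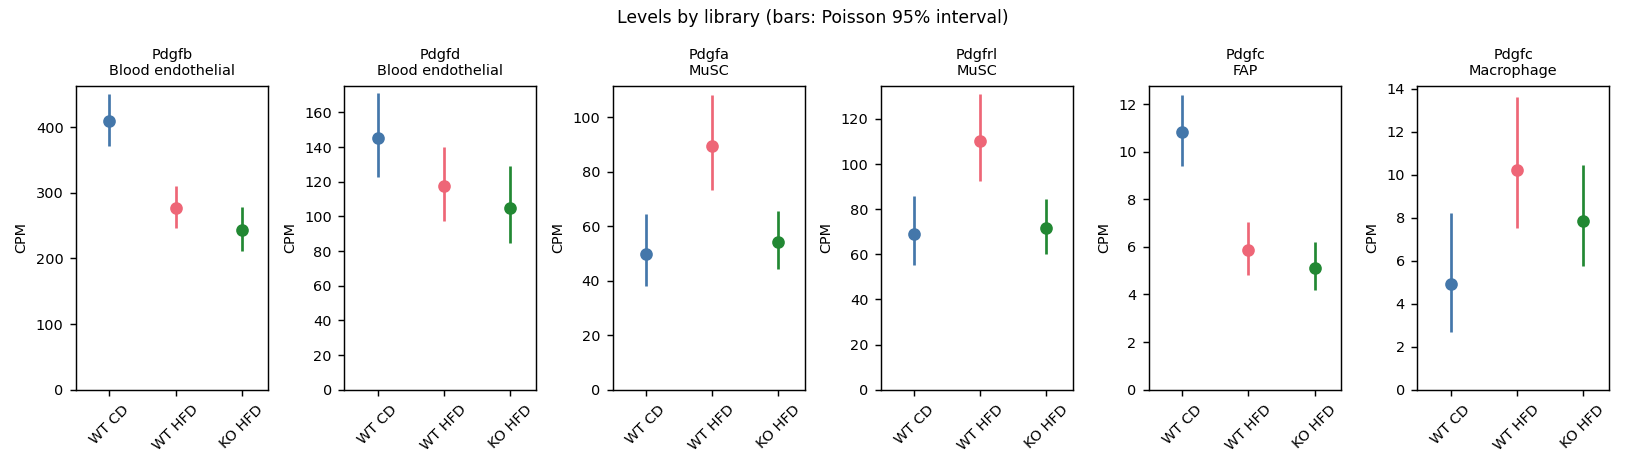
Level (CPM) by library of Pdgfb and Pdgfd in blood endothelial cells, Pdgfa and Pdgfrl in MuSCs, and Pdgfc in FAPs and macrophages, with 95% counting intervals as error bars. Pdgfb in blood endothelial cells (410 CPM) and Pdgfc in FAPs (10.8 CPM) are highest in WT CD, and both MuSC genes are highest in WT HFD.

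*Pdgfra* (chromosome 5, 75152292 to 75198215), the α receptor, was mainly a FAP transcript. FAPs held 368, 383 and 441 CPM (7244, 7383 and 9130 UMIs), and 87.1, 87.3 and 88.6% of them had a UMI. After FAPs and Thbs4-high cells came mesothelial cells with 20.2, 30.2 and 15.8 CPM and blood endothelial cells had 7.97, 10.6 and 2.34 CPM. MuSCs had 1 UMI and macrophages 3 UMIs in all libraries together, and mural and Schwann cells none (up to 15.3 and 8.58 CPM at that depth). The FAP level was above MuSCs (edgeR adjusted p = 7.44e-17), blood endothelial cells (adjusted p = 1.91e-16) and macrophages (adjusted p = 2.38e-19). Thbs4-high cells and the remaining FAPs were not told apart (log2 difference 0.10, SE 0.127, adjusted p = 0.821).

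FAP *Pdgfra* was highest in the KO HFD library. KO HFD exceeded WT HFD by 0.20 log2 units (0.16 to 0.25) and WT CD by 0.26 (0.22 to 0.31), a 1.20-fold difference. WT HFD exceeded WT CD by 0.06 (0.01 to 0.11), less than the median shift of all FAP genes in that comparison (0.10), and the sign turned when libraries were scaled by TMM factors (-0.025). None of the 7 members was called between libraries in FAPs. *Pdgfb*, *Pdgfc* and *Pdgfd* lay under 20 CPM and the other members differed by less than 1.5-fold. The share of all genes called was 1.66% for WT HFD against WT CD, 0.836% for KO HFD against WT HFD and 1.06% for KO HFD against WT CD.

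**Figure D3:**
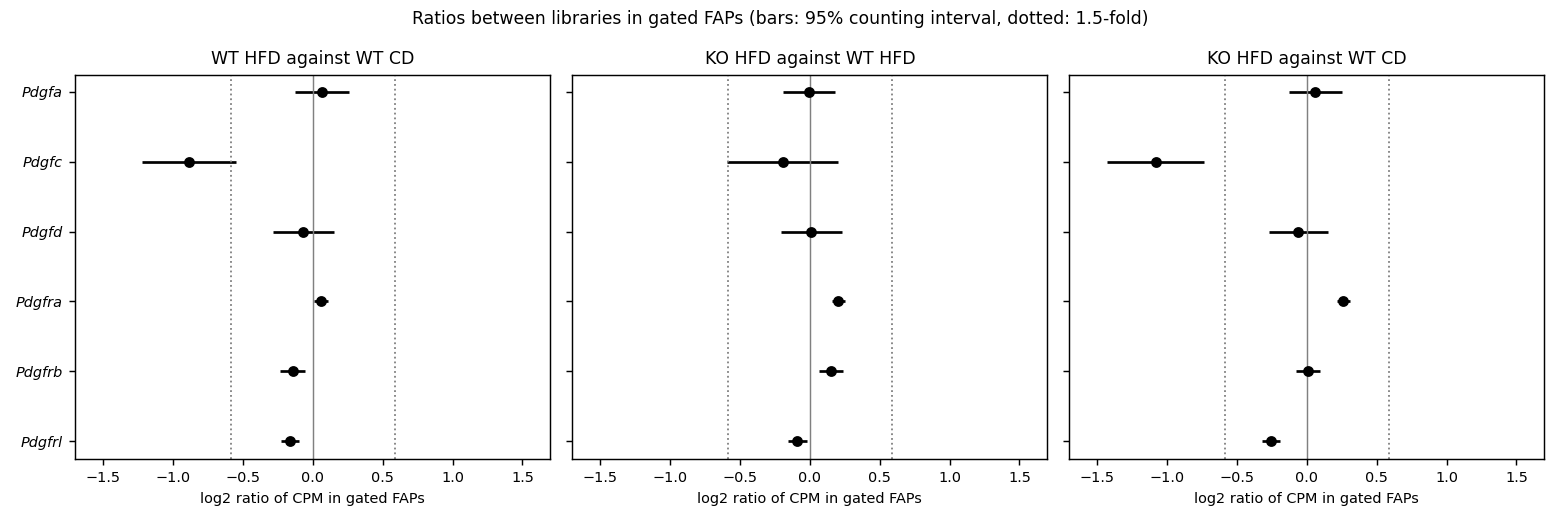
Log2 ratios of CPM between libraries in all gated FAPs for 6 PDGF genes (Pdgfb, with 7, 2 and 1 UMIs, is left out), 1 panel per comparison, with 95% counting intervals as bars and dotted lines at 1.5-fold. Relative to WT CD, Pdgfc lies at -0.88 in WT HFD and at -1.08 in KO HFD, and Pdgfra in KO HFD lies at 0.20 against WT HFD and 0.26 against WT CD.

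*Pdgfrb* (chromosome 18, 61045150 to 61085061), the β receptor, was highest in mural cells, at 474, 618 and 716 CPM (27, 52 and 39 UMIs), and 73.3, 76.5 and 100% of the 15, 17 and 13 mural cells had a UMI. FAPs followed with 112, 101 and 112 CPM and a UMI in 54.8, 52.6 and 53.8% of cells. Thbs4-high cells, nearly all of them FAPs, had 122, 107 and 120 CPM, and the other classes were far lower, with 0.997, 11.5 and 11.7 CPM in blood endothelial cells, 8 UMIs in MuSCs and 2 in macrophages. Mural cells exceeded FAPs by 2.09 log2 units (SE 0.243, added edgeR fit, adjusted p = 3.22e-08), and FAPs exceeded MuSCs (adjusted p = 1.88e-12) and macrophages (adjusted p = 3.24e-16).

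Mural *Pdgfrb* was not resolved between libraries, KO HFD against WT CD giving a log2 ratio of 0.59 (-0.15 to 1.36). In FAPs the WT HFD level was slightly lower than WT CD (-0.14, -0.23 to -0.06) and KO HFD was above WT HFD (0.15, 0.06 to 0.24), so that KO HFD and WT CD were level (0.01). These differences are near 1.1-fold. Since FAPs greatly outnumbered mural cells, mural cells gave just 1.65% of *Pdgfrb* UMIs.

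Both receptors were found together in many FAPs. Among all gated FAPs, including 160 cells of the mesothelial gate, a UMI of each was present in 3250 of 6609 FAPs (49.2%), and 92.3% had a UMI of at least one. *Pdgfrb* was detected in 56.1% of *Pdgfra*-positive and 37.3% of *Pdgfra*-negative FAPs. At 3000 UMIs per cell (133 shallower FAPs left out) the shares were 28.1 and 24.3%. Without cells of the mesothelial gate they were 56.3 and 44.5% unthinned and 28.1 and 26.0% thinned. *Pdgfa*, a ligand of PDGFRα, went the other way, in 13.7% of *Pdgfra*-positive and 21.5% of *Pdgfra*-negative FAPs, or 4.75 and 7.36% after thinning. Without cells of the mesothelial gate these were 13.6 and 17.7% unthinned and 4.76 and 6.67% thinned.

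*Pdgfrl* (chromosome 8, 40926212 to 40990785), the receptor-like gene without a kinase domain, was highest in Thbs4-high cells, at 371, 343 and 370 CPM. All gated FAPs held 217, 193 and 181 CPM, and FAPs without cells of another gate 122, 114 and 98.7 CPM. The latter were below Thbs4-high cells by 1.67 log2 units (SE 0.138, edgeR adjusted p = 1.23e-08). *Pdgfa* was likewise lower in them (-1.19, SE 0.165, adjusted p = 1.99e-05), as was *Pdgfd* (-0.72, SE 0.147, adjusted p = 0.00251), the *Pdgfd* call being lost without the KO HFD library (adjusted p = 0.176).

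MuSCs also carried *Pdgfrl*, at 69.2, 110 and 71.7 CPM (83, 132 and 139 UMIs) in 27.5, 46.8 and 34.4% of cells. The 354 *Pdgfrl* UMIs of MuSCs stood beside 1 *Pdgfra* UMI and 8 *Pdgfrb* UMIs in the same cells, whereas FAPs had more *Pdgfra* than *Pdgfrl* UMIs. After thinning, 23.0% of MuSCs and 0.169% of B cells had a *Pdgfrl* UMI. The difference between FAPs without cells of another gate and MuSCs did not pass the test (0.24, SE 0.16, edgeR adjusted p = 0.207). It passed when Thbs4-high cells were kept among the FAPs (1.04, background 55.2%, adjusted p = 4.00e-05) and without the WT HFD library (0.51, adjusted p = 0.00936). Lymphatic endothelial cells had 9.70, 7.24 and 17.8 CPM and mural cells none.

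In MuSCs, *Pdgfa* and *Pdgfrl* were both highest in the WT HFD library. *Pdgfa* there was 1.79 times WT CD (log2 ratio 0.84, 0.37 to 1.32) and KO HFD was below WT HFD (-0.73, -1.13 to -0.32). *Pdgfrl* was 1.60 times WT CD (0.67, 0.27 to 1.09) and KO HFD was 0.649 times WT HFD (-0.62, -0.98 to -0.27). The background was large: 20.1% of MuSC genes were called higher in WT HFD than in WT CD, and 6.17% lower in KO HFD than in WT HFD. The median MuSC gene was itself 0.19 log2 units higher in WT HFD than in WT CD. With TMM factors, which bring that median to -0.015, the ratios were 0.63 for *Pdgfa* and 0.47 for *Pdgfrl*, the latter below 1.5-fold. For KO HFD against WT HFD they were -0.64 and -0.53, the *Pdgfrl* ratio again falling under 1.5-fold. Myofibre transcripts in MuSCs summed to 176, 309 and 207 CPM, in the same order, with *Acta1* most abundant and none at 0. Red-cell transcripts gave 0.833, 0 and 427 CPM, *Hbb-bs* most abundant. Their part in these ratios was not tested.

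FAPs were divided into 5 subclusters by k-means on variable genes without the 7 family members. Subcluster 1 (2126 cells) was led by *Timp1*, *Apod* and *Gdf10*, subcluster 2 (1887 cells) by *Cxcl14* and *Cxcl1*, subcluster 3 (1298 cells) by *Efhd1*, *Stmn4* and *Pla1a*, and subcluster 4 (1143 cells) by *Sfrp2*, *Tnmd* and *Thbs2*. Subcluster 5 (155 cells) was led by *Slpi*, *Upk3b* and *Msln*, genes of mesothelium, and is left out where subclusters are ranked below. Its cells remain in the values for all FAPs, in those of the pathway genes and where subclusters are weighted alike. Levels in subclusters are descriptions, because the same cells defined them.

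*Pdgfrl* ranged widely, at 546, 528 and 553 CPM in subcluster 4 and 51.8, 50.4 and 25.8 CPM in subcluster 3. *Pdgfra* was highest in subcluster 2 in WT CD and WT HFD (469 and 502 CPM) and lowest in subcluster 3 in all libraries (276, 295 and 314 CPM). *Pdgfrb* lay between 87.2 and 140 CPM in subclusters 1 to 4. The ligands *Pdgfa* and *Pdgfd* were highest in subcluster 4, with 49.5, 47.8 and 42.6 CPM of *Pdgfa* and 40.3, 37.8 and 47.4 CPM of *Pdgfd*. *Pdgfc* was lowest in subcluster 2 (3.19, 0.909 and 1.17 CPM).

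**Figure D4:**
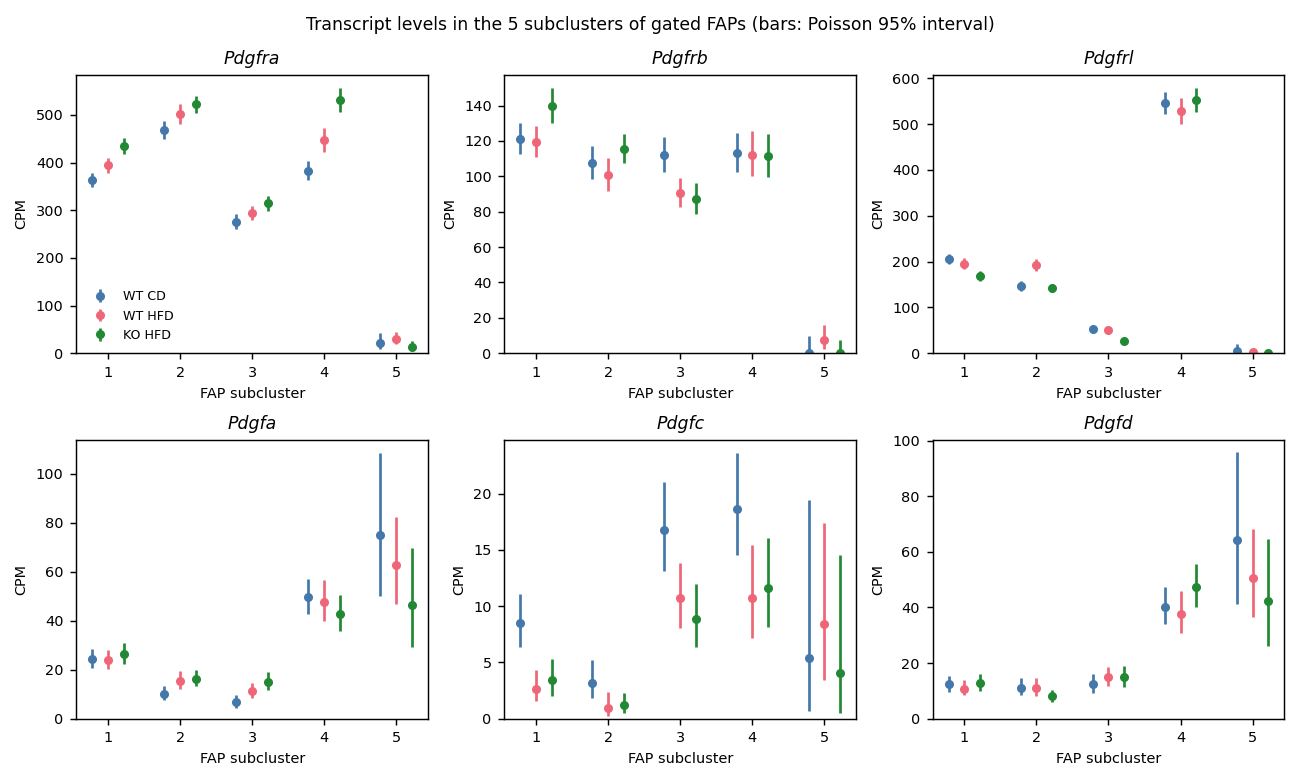
Level of PDGF genes (CPM) in the 5 FAP subclusters, 1 point per library with its 95% counting interval as a bar. Pdgfrl reaches 546, 528 and 553 CPM in subcluster 4 and stays at or below 205 CPM in the others, while Pdgfra in subcluster 5 is at 21.5, 30.1 and 12.1 CPM.

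Splitting FAPs this way set the library differences in context. *Pdgfra* was highest in KO HFD in each of subclusters 1 to 4, KO HFD exceeding WT CD by 0.26, 0.15, 0.19 and 0.47 log2 units, with intervals above 0 in each. Against WT HFD the ratios were 0.14 (0.06 to 0.22), 0.058 (-0.019 to 0.13), 0.093 (-0.011 to 0.20) and 0.25 (0.14 to 0.36), so that subclusters 1 to 3 lay under the 0.20 of all FAPs and subclusters 2 and 3 were not resolved from 0. Subcluster 4 held the largest of these, with 382, 447 and 531 CPM (1.39-fold). *Pdgfc* was lower in WT HFD than WT CD in subclusters 1 to 4, by log2 ratios of -1.67, -1.81, -0.65 and -0.80, and all 4 intervals lay below 0. Subcluster 5 had the opposite sign (0.65) on 2 and 7 UMIs.

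The *Pdgfrl* difference in all FAPs (KO HFD against WT CD, -0.26, -0.32 to -0.19) was seen in subclusters 1 (-0.28, -0.41 to -0.16) and 3 (-1.01, -1.34 to -0.68). In subcluster 3 KO HFD was also 0.511 times WT HFD (-0.97, -1.29 to -0.65), a call made for 0.857% of genes in that direction. Subcluster 2 held more *Pdgfrl* in WT HFD (192 CPM) than in WT CD or KO HFD (146 and 143 CPM), and subcluster 4, the main source, showed no resolved difference (KO HFD against WT CD 0.017, -0.077 to 0.11).

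Other genes of the pathway were taken from 3 lists by role and read in FAPs. The first held 12 genes for ligand maturation and binding, such as furin-type convertases and plasminogen activators that cleave PDGF chains and the binding partners SPARC and LRP1. Of these, 9 reached 20 CPM and 0 differed 1.5-fold between any libraries. Among all FAP genes that share was also small, from 0.836% to 1.66% depending on the libraries compared. A count of 0 among 9 genes is near that share and does not set the list apart. The median log2 ratio of these 9 genes was 0.24 for WT HFD against WT CD, beside 0.10 for all genes. The most abundant were *Sparc* (2620, 3543 and 3011 CPM), whose protein binds PDGF-B, and *Lrp1* (975, 1003 and 1080 CPM), an endocytic co-receptor of PDGFRβ.

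The second list held 25 genes of receptor-proximal signalling and turnover, the adaptors, kinases, phosphatases and ubiquitin ligases that act on the activated receptors. Of these, 19 reached 20 CPM for WT HFD against WT CD, again with 0 past 1.5-fold, near the 1.66% of all FAP genes. Their median log2 ratio was 0.14, beside 0.10 for all genes. The most abundant were *Socs3*, a feedback inhibitor of cytokine signalling (304, 321 and 366 CPM), and *Pik3r1*, the p85α subunit of PI3 kinase (112, 112 and 108 CPM).

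The third list held 14 early response genes, which growth factors, serum and tissue handling induce within minutes. For KO HFD against WT HFD, 13 reached 20 CPM and their median log2 ratio was 0.28, beside -0.05 for all genes. Only *Egr2*, a zinc-finger transcription factor, passed 1.5-fold (26.5, 25.9 and 39.5 CPM, log2 ratio 0.61), as did 0.461% of all FAP genes in that direction. For WT HFD against WT CD the median was -0.15, beside 0.10 for all genes. No member passed 1.5-fold in that comparison, near the 1.66% of all FAP genes that did in either direction. The most abundant members were *Fos* (3895, 3863 and 4527 CPM) and *Egr1* (2613, 2223 and 2882 CPM).

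**Figure D5:**
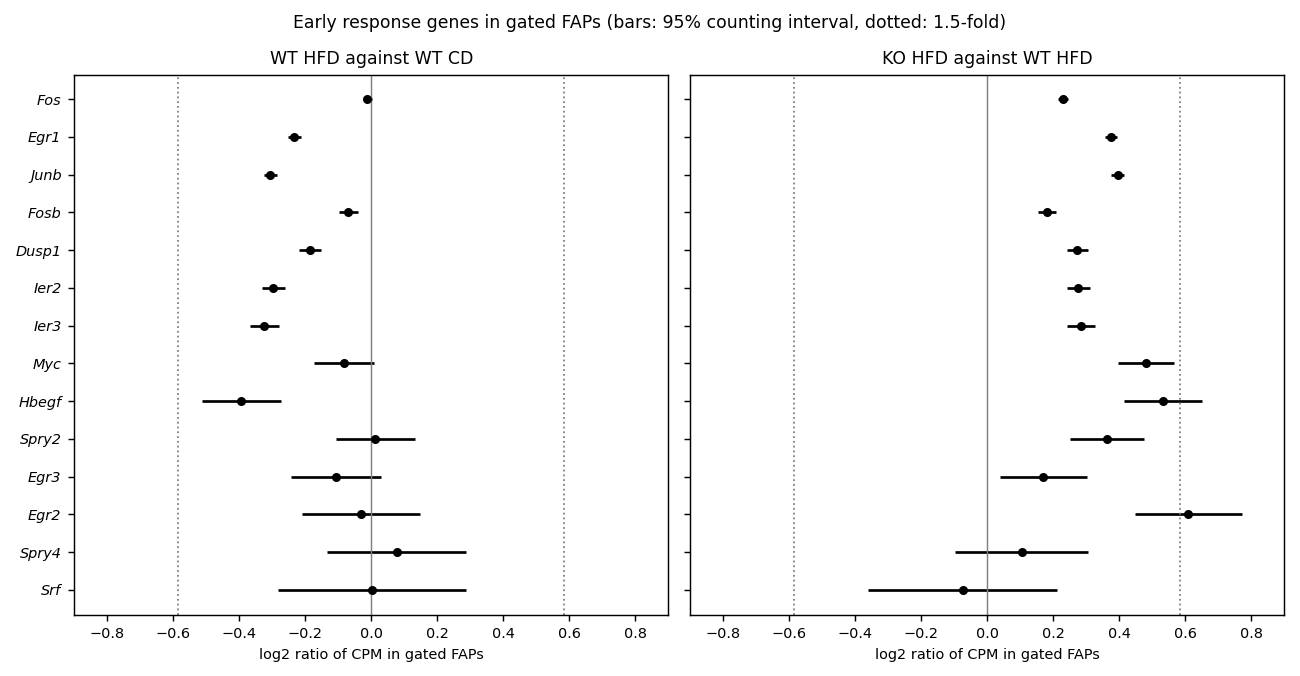
Log2 ratios of CPM of the 14 early response genes in FAPs, WT HFD against WT CD on the left and KO HFD against WT HFD on the right, with 95% counting intervals as bars and dotted lines at 1.5-fold. For KO HFD against WT HFD the values centre on a median of 0.28 and Egr2 is highest at 0.61.

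The genes most like each member were found by Pearson correlation of log2(CPM + 10) over 21 sums, 7 classes in 3 libraries, among 8986 genes. The sums of a class share cell type and those of a library share depth and mice, so the coefficients are descriptions. *Pdgfra* was closest to *Naalad2* (r = 0.996), *Twist1* (0.995) and *Cd248* (0.994), and *Pdgfrb* to *C1s1* (0.992), *Naalad2* (0.991) and *Pde1a* (0.991), mural cells not being among the classes. *Pdgfrl* was closest to *Hmcn2* (0.985), *Epdr1* (0.979) and *Ssc5d* (0.976). *Pdgfb* was closest to *Myo18a* (0.989), *Cd93* (0.982) and *Bcam* (0.980), and *Pdgfd* to *Crispld1* (0.982), *Plscr2* (0.978) and *Eogt* (0.972). *Pdgfa* had weaker neighbours, *Aopep* (0.946), *Rnf7* (0.933) and *Sh3glb1* (0.931). *Pdgfc*, under 20 CPM in every sum, was closest to *Gm12840* (0.930), *Emilin2* (0.920) and *Pid1* (0.919).

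Among the members themselves, *Pdgfra* and *Pdgfrb* had the closest patterns over these 21 sums (r = 0.98). *Pdgfb* and *Pdgfd* were the closest pair of ligands (0.73), and *Pdgfrl* followed both receptors (0.79 with *Pdgfra* and 0.80 with *Pdgfrb*). *Pdgfa* correlated weakly with *Pdgfra* (-0.13), *Pdgfrb* (-0.06) and *Pdgfrl* (0.22). *Pdgfb* correlated negatively with all of these, lowest with *Pdgfrl* (-0.58).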

How the data were processed

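After 10x Genomics 3′ capture the authors counted UMIs per gene with Cell Ranger on mm10, per the labels and file headers (6.1.1 in the submitters' processing notes and 6.1.0 in the file headers). They deposited whole-number UMI counts, not normalized, for 32285 genes in 3 libraries of called cells. The groups came from the labels. Positions are those of the GRCm38 annotation. The 7 genes, the gene lists and the marker gates were chosen with earlier results of these data known.

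All 12275 barcodes were kept. Cells were assigned by UMI gates and counts were summed per class and library. A cell in several gates other than the FAP gate was left in no class, and the 1.26, 1.09 and 1.33% of barcodes that Scrublet marked as doublets stayed in the values reported. Counts carry exact Poisson intervals at 95%, ratios the matching exact interval and a count of 0 a floor of 3 counts, all for counting error only. At 31967976 to 36478779 UMIs per library, intervals are narrow in FAPs and wide in mural and Schwann cells. Classes were compared in edgeR 4.0.16 (R 4.3.3), checked on simulated data, with DESeq2 1.42.0 as an alternative. Clustering used scanpy 1.11.5, scikit-learn 1.9.0, numpy 2.4.6 and scipy 1.17.1 in Python 3.11.15, and figures matplotlib 3.10.9.

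The genes named were the 7 members, the 2 members of each pathway list highest in FAPs and any list member past 1.5-fold, the 3 likest genes of each member and *Thbs1*. Other genes are markers. Alternatives for the cells were other *Dcn* minimums, clusters in place of gates, a gate on *Scx*, gates without *Prox1*, cells of another gate left out, filters and doublets removed. Further alternatives were other scaling, per-cell means, and subclustering with k of 4 or 7 or without genes that differ between libraries. Class fits were repeated with other filters and tools, and with each library left out. No test between diets or genotypes was made, since each has 1 library.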

Additional observations from a re-analysis of the deposited data

Results flagged for a closer look

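Some log2 ratios had opposite signs in different cells, each with a counting interval that did not include 0, and none of these differences was tested. For WT HFD against WT CD, *Pdgfc* was -0.88 in FAPs and 1.06 in macrophages, and *Pdgfrl* was -0.17 in FAPs and 0.67 in MuSCs. With macrophages split by *Folr2*, the *Pdgfc* intervals included 0 in both parts. The FAP *Pdgfrl* ratio changed sign in subcluster 2 and with subclusters weighted alike, and the MuSC *Pdgfrl* ratio was under 1.5-fold with TMM factors. For KO HFD against WT CD, *Pdgfrb* was 0.21 in FAP subcluster 1 and -0.36 in subcluster 3.

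PDGF transcripts were also found in the 1695 cells in no class, of which 418 had at least 10 *Dcn* UMIs. Cells that passed several gates are among the 1695, including 185 that passed both the MuSC and lymphatic gates. Over all libraries the 1695 cells held 143 CPM of *Pdgfra*, 40.3 CPM of *Pdgfrb*, 70.6 CPM of *Pdgfrl*, 23.5 CPM of *Pdgfa*, 14.6 CPM of *Pdgfb*, 3.47 CPM of *Pdgfc* and 10.2 CPM of *Pdgfd*.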

How the results depend on the processing

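Ratios of WT HFD against WT CD and of KO HFD against WT HFD were recomputed under the alternatives. This covered every member other than *Pdgfb* in FAPs, *Pdgfb* and *Pdgfd* in blood endothelial cells, and *Pdgfa* and *Pdgfrl* in MuSCs. For *Pdgfc* in macrophages it covered WT HFD against WT CD. Ratios of KO HFD against WT CD were not part of these checks. Of the values, 181 stayed within the counting error of the reported ones. Another 43 moved beyond it with the same sign or from a ratio whose interval included 0, and 8 changed the sign of a ratio whose interval did not. Below, the diet ratio is WT HFD over WT CD and the genotype ratio KO HFD over WT HFD, both in FAPs on the log2 scale. The sign changes were the *Pdgfc* diet ratio in subcluster 5 (0.65, on 2 and 7 UMIs), the *Pdgfra* diet ratio with TMM factors and genotype ratio in subcluster 5, the *Pdgfrb* genotype ratio in subclusters 3 and 4, the *Pdgfrl* diet ratio in subcluster 2 and with subclusters weighted alike, and the *Pdgfrl* genotype ratio in subcluster 4. Of those within a subcluster, the *Pdgfrl* diet ratio in subcluster 2 had an interval on the other side of 0 (0.25 to 0.54).

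With cells of another gate left out, diet ratios were 0.16 for *Pdgfd*, -0.053 for *Pdgfrb* and -0.095 for *Pdgfrl*, and genotype ratios 0.27 for *Pdgfa*, -0.68 for *Pdgfc* (-1.21 to -0.15, now without 0) and -0.21 for *Pdgfrl*. TMM factors gave diet ratios of -0.025 for *Pdgfra* and -0.25 for *Pdgfrl*. With subclusters weighted alike these were 0.14 and 0.022, and the *Pdgfra* genotype ratio 0.12. Within subcluster 1, diet ratios were -1.67 for *Pdgfc*, 0.12 for *Pdgfra*, -0.022 for *Pdgfrb* and -0.069 for *Pdgfrl*, and genotype ratios 0.35 for *Pdgfc*, 0.23 for *Pdgfd*, 0.14 for *Pdgfra* and -0.22 for *Pdgfrl*. Subcluster 2 gave diet ratios of 0.63 for *Pdgfa*, -1.81 for *Pdgfc* and 0.40 for *Pdgfrl*, and genotype ratios of 0.36 for *Pdgfc*, -0.45 for *Pdgfd*, 0.058 for *Pdgfra* and -0.43 for *Pdgfrl*. Subcluster 3 gave diet ratios of 0.76 for *Pdgfa*, 0.26 for *Pdgfd*, -0.31 for *Pdgfrb* and -0.040 for *Pdgfrl*, and genotype ratios of 0.42 for *Pdgfa*, 0.093 for *Pdgfra*, -0.054 for *Pdgfrb* and -0.97 for *Pdgfrl*. Subcluster 4 gave diet ratios of 0.23 for *Pdgfra*, -0.014 for *Pdgfrb* and -0.048 for *Pdgfrl*, and genotype ratios of 0.33 for *Pdgfd*, -0.012 for *Pdgfrb* and 0.065 for *Pdgfrl*. Subcluster 5 gave diet ratios of -0.26 for *Pdgfa*, -0.35 for *Pdgfd*, 0.49 for *Pdgfra* and -1.16 for *Pdgfrl*, and genotype ratios of -0.43 for *Pdgfa*, -1.06 for *Pdgfc*, -0.26 for *Pdgfd* and -1.32 for *Pdgfra*. In endothelial cells with fewer than 2 arterial UMIs, *Pdgfd* was 0.13 for diet and -0.71 for genotype. The cause of these moves was not tested.

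Levels in a class moved beyond counting error in 47 checks and stayed within it in 163. The highest or lowest level over FAP subclusters moved in 18 and stayed in 24, 8 of the moves being with k = 4 and 9 with k = 7. *Pdgfrl* then spanned 62.5 to 488 CPM and 39.1 to 570 CPM. Each class contrast of a family member was checked under each alternative, and 374 checks kept the side of the threshold, 13 lost the call and 2 gained it. The losses were *Pdgfc* between FAPs and macrophages (RLE factors, DESeq2, doublets removed, without WT HFD, without KO HFD), *Pdgfrb* between MuSCs and blood endothelial cells (doublets removed, all gated FAPs, without WT HFD, without KO HFD), *Pdgfd* between Schwann cells and FAPs (without WT CD, without WT HFD), *Pdgfd* between FAPs and Thbs4-high cells (without KO HFD) and *Pdgfa* between MuSCs and blood endothelial cells (without WT HFD). Both gains were *Pdgfrl* between FAPs and MuSCs. Genes called between FAPs and Thbs4-high cells numbered 875, with DESeq2 547, and between 386 and 731 with 1 library left out. No paired analysis was possible because each group has 1 library, so the number 1 they share pairs no replicates, and no library could be left out of the ratios. Mural, Schwann, neutrophil and dendritic cells were few, which limits every level given for them. Splits by subcluster, arterial markers and *Folr2*, the gate on *Scx*, the gates without *Prox1* and the added class fit were chosen after seeing the data.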
